A study of Mus musculus with 18 samples.

Results

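The genes described here are 8 genes of MHC class II antigen presentation: Cd74, H2-Aa, H2-Ab1, H2-Eb1, H2-DMa, H2-DMb1, H2-DMb2 and Ciita. They were picked by symbol, through the GENCODE M21 annotation of the mouse build GRCm38, from the 47729 genes that each count table lists, a rule that uses symbols and no measured value, though the set was proposed with earlier results of these data known. All 8 passed the filter on low counts, which kept 14675 genes. RNA was sequenced from epithelial cells of the ileum, the last stretch of the small intestine, which had been sorted from female mice by fluorescence-activated cell sorting. The 18 libraries came from virgin, pregnant and pseudopregnant females, 6 of each, the last being a hormonal state like early pregnancy that arises in mice without embryos. The labels describe no genetic change or drug in any group and give no strain, age, day of pregnancy, sorting marker or batch. They also do not say whether the 6 libraries of a group come from separate animals, so every p-value here measures the spread between these samples, which may be technical.

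MHC class II molecules display peptides from endosomes to CD4+ T cells. An alpha and a beta chain (H2-Aa with H2-Ab1, or an H2-E alpha chain with H2-Eb1) assemble on the invariant chain Cd74, which blocks the peptide groove and routes the complex to endosomes. There proteases trim Cd74, and H2-DM, a dimer of H2-DMa with an H2-DMb chain, releases the last fragment so that peptide can bind. Ciita is the coactivator that switches the whole set on. It does not bind DNA itself but docks on the RFX, CREB and NF-Y factors at paired promoter elements called the X and Y boxes. Dendritic cells, macrophages and B cells make class II constitutively, whereas epithelium of the small intestine makes it under the influence of interferon gamma.

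Of the 8 genes, 6 lie within 197.1 kb of chromosome 17 on build GRCm38, in the order H2-DMa (chr17:34119541-34139101), H2-DMb2 (chr17:34143307-34151555), H2-DMb1 (chr17:34153072-34160230), H2-Ab1 (chr17:34257689-34269419), H2-Aa (chr17:34282744-34287823) and H2-Eb1 (chr17:34305867-34316674). H2-Aa is on the minus strand and the other 5 are on the plus strand. Ciita lies apart at chr16:10480059-10528418 on the plus strand, and Cd74 lies on yet another chromosome. All are protein-coding genes, and their reads were counted over exons per gene, so the alternative promoters of Ciita are not separated. The strand setting of the counting is not given in the sources used here. Exons of H2-DMa share 360 bases with Brd2 on the opposite strand, a gene with 3185 to 6068 counts per library, and exons of Ciita share 329 bases with Dexi (166 to 274 counts). Transcripts of H2-DMb1 and H2-DMb2 are 94.6% identical over 1219 aligned bases, so their reads may be split between them and the level of H2-DMb2 is uncertain.

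The promoter stretches below are shown for their X and Y box letters, the elements on which the partner factors of Ciita bind at class II promoters. They come from RefSeq promoter windows (250 bases before to 50 after each start, build GRCm38.p6), run 5′ to 3′ on the strand of the gene, and carry in capitals the letters searched for: AACNGATG for the core of the X box and TGATTGG for the Y box. The letters and spacing were set after the windows had been read, so the matches are descriptions. H2-Eb2, a gene of the same region with almost no reads here, is shown for comparison.
H2-Eb1, chr17:34305766-34305824, plus strand: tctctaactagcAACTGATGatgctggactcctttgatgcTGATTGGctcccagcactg
H2-Eb2, chr17:34325533-34325591, plus strand: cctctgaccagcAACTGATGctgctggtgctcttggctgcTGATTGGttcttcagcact
H2-DMb2, chr17:34145116-34145175, plus strand: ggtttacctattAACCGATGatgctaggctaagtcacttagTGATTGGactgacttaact
H2-Aa, chr17:34287855-34287913, minus strand: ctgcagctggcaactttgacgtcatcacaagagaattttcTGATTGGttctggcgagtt

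On both strands, the X core letters occurred in 2.32% of 32851 RefSeq windows and the Y letters in 7.82%. Both together stood in 0.186% of windows, and the ordered pair on the gene's strand with 10 to 30 bases between them stood in 5 windows (0.0152%). Those 5 belonged to H2-Eb1, H2-DMb1, H2-DMb2, H2-Eb2 and BC051142, all on chromosome 17. The pair of H2-DMb1 lies within an annotated 5′ UTR of the GENCODE model and is not printed. The stretch of H2-DMb2 lies inside that gene's GENCODE span, in an intron of its longest model and before the RefSeq start. H2-Aa held the Y letters alone, and the windows of H2-DMa held neither. The search took only these exact letters, so a window without a match may still hold a variant of a box. The spacing was 20 bases in H2-Eb1 and H2-Eb2 and 21 in H2-DMb2. The same pair of letters thus stood before H2-Eb1, which had 144262 reads over the 18 libraries, and before H2-Eb2, which had 11.

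Libraries held 24.9 to 37.3 M counts. Values are CPM (counts per mega-count of library) after TMM scaling, a correction for differences in library composition. As a check of the labelled cell type, Epcam, which marks epithelium, had 1637 to 3587 CPM, whereas Ptprc, which marks all leukocytes, had 0.198 to 0.638. In bulk RNA a smaller share of cells making a transcript and less of it per cell cannot be told apart.

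Per kilobase of exon, with all annotated exons of a gene merged, Cd74 was the most abundant of the 8 transcripts and Ciita the least. On that scale, mean levels over the 18 libraries were 679.6 CPM for Cd74, 185 for H2-Ab1, 137 for H2-Eb1 and 84.0 for H2-Aa. They were 32.7 for H2-DMb1, 15.4 for H2-DMa, 2.32 for H2-DMb2 and 1.63 for Ciita. The chains of the peptide-binding molecules and the invariant chain thus stood above the H2-DM chaperone, and the coactivator stood below both. Most steps of this order held within each library: Cd74 exceeded H2-Ab1, H2-Ab1 exceeded H2-Eb1, H2-Eb1 exceeded H2-Aa and H2-Aa exceeded H2-DMb1 in 18 of 18 libraries. H2-DMb1 exceeded H2-DMa in 17 of 18, and H2-DMb2 exceeded Ciita in 15 of 18, so these last neighbours had no fixed order. The order depends on the exon lengths used (3798 bases for H2-Aa, 1944 for H2-Eb1). Without division by length, H2-Aa averaged 319 CPM against 266 for H2-Eb1, and Ciita 15.6 against 4.05 for H2-DMb2. All 8 together took from 0.0188% to 0.450% of a library's counts.

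Ciita, the coactivator, ranged from 1.31 to 34.2 CPM in the virgin libraries (median 7.48), from 5.45 to 39.5 in the pregnant ones (22.4) and from 4.18 to 20.6 in the pseudopregnant ones (12.9). Cd74, the invariant chain, stood at 1171, 502, 2189, 696, 1444 and 115 CPM in virgin libraries 1 to 6. In pregnant libraries 1 to 6 it stood at 1650, 1583, 2226, 2049, 542 and 1127 CPM. In pseudopregnant libraries 1 to 6 the values were 1238, 659, 1333, 924, 82.8 and 1009 CPM. The groups overlapped for both genes, and the lowest library of each group in Cd74 was virgin 6, pregnant 5 and pseudopregnant 5.

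H2-Aa, the alpha chain of H2-A, had a lowest, median and highest value of 16.4, 217 and 707 CPM in the virgin, 104, 385 and 803 in the pregnant and 13.4, 241 and 381 in the pseudopregnant group. Its partner H2-Ab1 had 60.4, 387 and 1007 CPM in the virgin, 215, 627 and 1036 in the pregnant and 37.3, 354 and 594 in the pseudopregnant group. The beta chain of H2-E, H2-Eb1, had 29.2, 220 and 489 CPM in the virgin, 123, 370.1 and 544 in the pregnant and 17.7, 200 and 354 in the pseudopregnant group. In all 3 genes the lowest pregnant library lay between the lowest and the median virgin library, so the groups overlapped.

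H2-DMa, the alpha chain of the peptide-exchange chaperone, spanned 14.6 to 75.4 CPM in the virgin (median 51.6), 30.7 to 94.5 in the pregnant (74.6) and 8.82 to 70.6 in the pseudopregnant libraries (42.5). H2-DMb1, its beta chain, spanned 7.24 to 95.3 CPM (40.3), 23.6 to 114 (72.2) and 3.71 to 66.9 (46.2) in the same order of groups. H2-DMb2, the near copy of H2-DMb1, spanned 0.701 to 6.79 CPM (3.13), 1.75 to 7.48 (5.32) and 0.393 to 5.62 (3.63). The groups overlapped in each of them.

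The same libraries stood at the ends for every gene. Virgin 6, pregnant 5 and pseudopregnant 5 were the lowest of their groups in 8 of 8 genes, and virgin 3 and pregnant 3 the highest of theirs in 8 of 8. The top of the pseudopregnant group was shared among library 1 (4 genes), library 3 (3 genes) and library 4 (Ciita).

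**Figure D1:**
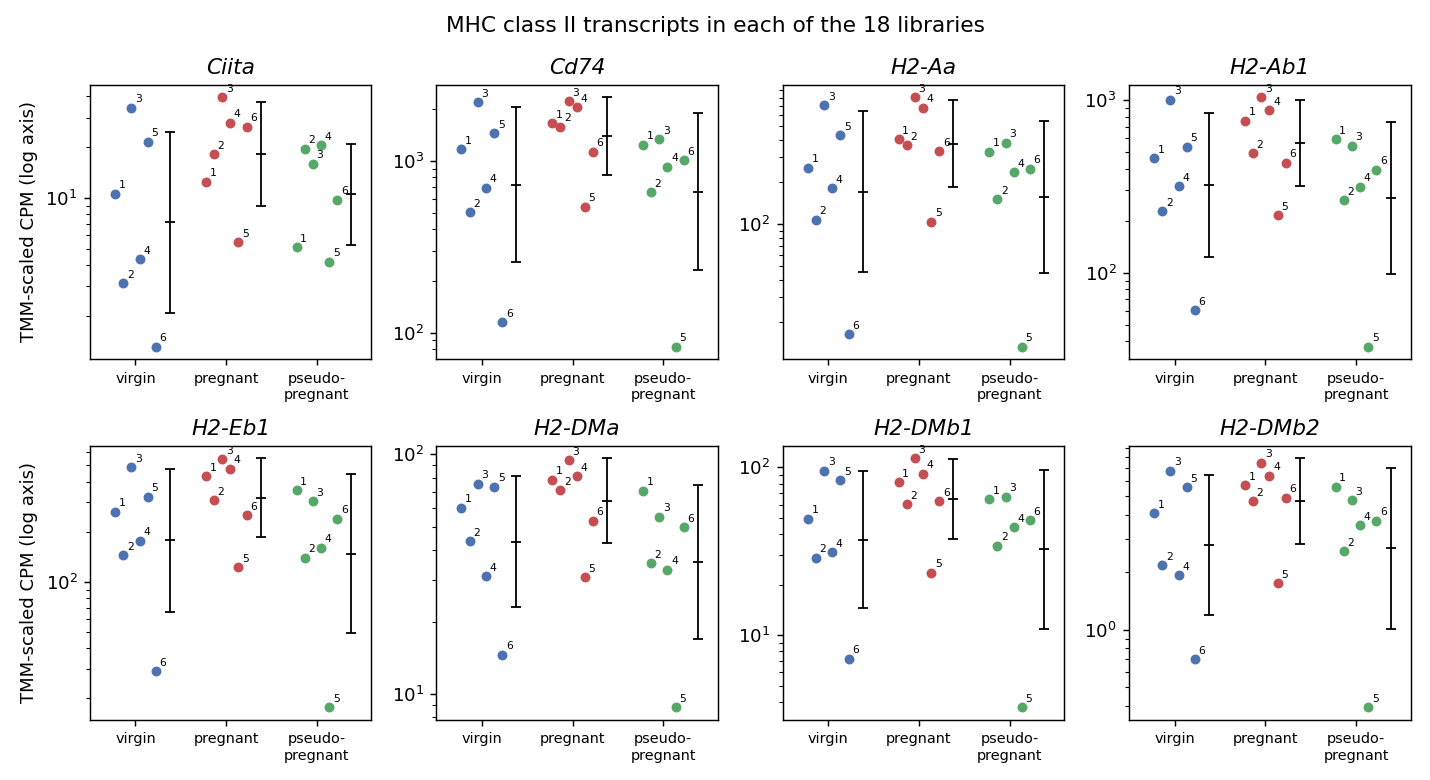
Level of each of the 8 class II transcripts in each library, in TMM-scaled CPM on a log axis, by group; numbers are replicate numbers, and the bar beside each group is its mean ± SD of log2 values (n = 6). For Cd74, virgin 6 (115 CPM) and pseudopregnant 5 (82.8 CPM) lie far below the other 16 libraries, and the 3 groups overlap in all 8 panels.

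Pregnant and virgin libraries were compared to ask how class II transcripts differ with pregnancy, and none of the 8 genes passed the test. Means were higher in the pregnant group for all 8, with Cd74 at 1529 ± 618 against 1020 ± 743 CPM and Ciita at 21.7 ± 12.2 against 12.5 ± 12.9 CPM (mean ± SD, n = 6). On the log2 scale the difference of Cd74 was 0.58 (SE 0.56, 95% interval -0.59 to 1.76) and that of Ciita 0.79 (SE 0.62, -0.50 to 2.09), with adjusted p = 0.891 for both by edgeR's quasi-likelihood test with Benjamini-Hochberg adjustment. The differences of the other 6 ran from 0.46 (SE 0.40, H2-DMa) to 0.66 (SE 0.68, H2-Aa), also with adjusted p = 0.891. For each gene, 5 of 6 pregnant libraries stood above the virgin median.

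The count of 0 of 8 compares with 0% of all 14675 genes past an adjusted p of 0.05 in that comparison. At an unadjusted p under 0.05, edgeR also gave 0 of the 8, beside 3.68% of all genes, and the groups failed to overlap for none of the 8, beside 0.0681% of all genes. DESeq2 and limma-voom called 0 of the 8 as well, and over all settings tried the smallest adjusted p of any of them was 0.349. All 8 differences were positive, beside 48.5% of all genes. Their median was 0.57, against -0.008 over all genes. The 8 genes move together across libraries, so their shared sign is in large part 1 observation. The median was 0.34 without virgin replicate 6 and 0.94 without virgin replicate 3, with 8 of 8 positive each time.

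Between pseudopregnant and virgin libraries the class II transcripts lay closer together. Cd74 averaged 874 ± 455 CPM against 1020 ± 743 (log2 difference -0.22, SE 0.56, 95% interval -1.39 to 0.95, edgeR adjusted p = 0.853). Ciita averaged 12.5 ± 7.19 against 12.5 ± 12.9 CPM (0.0011, SE 0.62, adjusted p = 0.999), and its sign turned with the scaling of the libraries. H2-Aa had the lowest difference at -0.32 (SE 0.67) and H2-DMb2 stood at -0.05 (SE 0.49). None of the 8 passed (0% of all genes), with 0 of 8 at an unadjusted p under 0.05 beside 9.37% of all genes, and 0 of 8 by DESeq2 and limma-voom. Positive differences made up 1 of 8, beside 50.6% of all genes. No gene had groups that failed to overlap, beside 0.0681% of all genes. The median over the 8 was -0.23 (0.004 over all genes), and it was 0.16 without virgin replicate 3, with 7 of 8 positive, and 0.015 without pseudopregnant replicate 5, with 5 of 8 positive.

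Pregnant against pseudopregnant libraries were the last comparison, and again no gene passed. H2-Aa averaged 448 ± 253 against 226 ± 131 CPM (log2 difference 0.99, SE 0.68, 95% interval -0.43 to 2.41, edgeR adjusted p = 0.920). Cd74 differed by 0.81 (SE 0.56, -0.37 to 1.98) and H2-DMa, the most precisely measured, by 0.69 (SE 0.40, -0.15 to 1.54), with the same adjusted p. In 7 genes, 5 of 6 pregnant libraries stood above the pseudopregnant median, and in Ciita 4 of 6 did. Of the 8, 0 passed (0% of all genes) and 0 had an unadjusted p under 0.05 (2.35% of all genes). DESeq2 and limma-voom also called 0. Groups overlapped for all 8, beside 0.0273% of all genes whose groups did not. Differences were positive in 8 of 8, beside 48.4% of all genes, with a median of 0.80 against -0.008 over all genes, or 0.57 without pseudopregnant replicate 5. Each pair of these comparisons shares 1 group of libraries, so the 3 medians are not separate evidence.

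**Figure D2:**
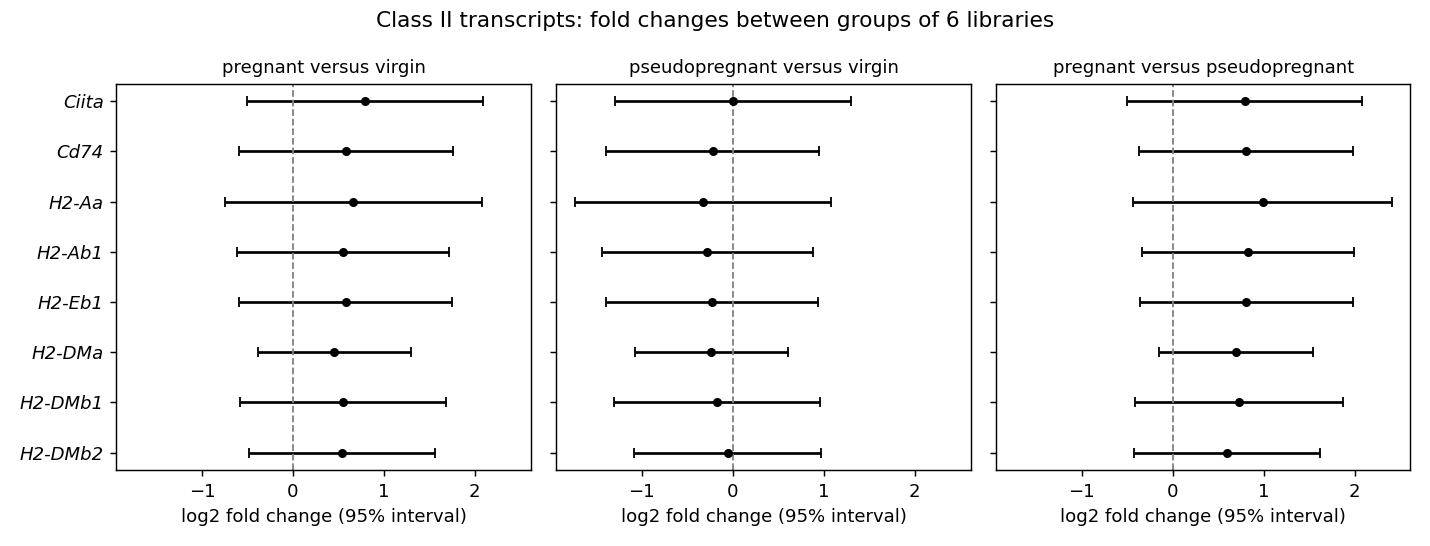
Log2 fold change of each class II transcript in the 3 comparisons from edgeR's fit to all 18 libraries; points are estimates and bars 95% intervals, and the dashed line marks no difference. Every interval crosses 0, including that of H2-Aa between pregnant and pseudopregnant libraries (-0.43 to 2.41).

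Replicate libraries differed from each other more in these genes than in most others. Within groups, the SD of log2 CPM was 1.31 for Cd74, 1.63 for H2-Aa and 0.87 for H2-DMa, against a median of 0.36 over all genes tested. That of Cd74 was larger than in 99.65% of genes, that of H2-Aa than in 99.91% and that of H2-DMa than in 97%. The highest virgin library exceeded the lowest by 19.1-fold in Cd74, 43.2-fold in H2-Aa and 26.1-fold in Ciita, where the median gene showed 1.84-fold. In the pregnant group the same ratios were 4.11, 7.71 and 7.25, and in the pseudopregnant group 16.1, 28.5 and 4.92. Whether the spread itself differs between groups was not tested.

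The genes of the presentation machinery varied across libraries in near lockstep, whereas Ciita followed more loosely. Correlations used log2 CPM after subtraction of each group's mean, over 18 libraries that share their depth and cell make-up between genes. Over the 21 pairs without Ciita, Pearson's r ran from 0.953 to 0.995, and over the 7 pairs with Ciita it ran from 0.67 to 0.80. Cd74 with Ciita had r = 0.77 (permutation p = 0.00022, adjusted p = 0.000385 over 14 relations of Cd74) and Spearman's rho = 0.72 (permutation p = 0.00395, adjusted p = 0.00614). Without pseudopregnant 5 and virgin 6, the libraries farthest from the median of Cd74, r was 0.72. Cd74 with the chains H2-Aa, H2-Ab1 and H2-Eb1 had r of 0.99 each and with H2-DMa 0.96 (each permutation p = 1e-05, the smallest that 100000 permutations can give, adjusted p = 2e-05). Without pseudopregnant 5 and virgin 6 these were 0.98, 0.97, 0.96 and 0.89.

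Ciita tracked the other genes to a different degree in each group. Its r with the other 7 ran from 0.92 to 0.97 among the virgin libraries, from 0.78 to 0.90 among the pregnant ones and from 0.35 to 0.54 among the pseudopregnant ones (n = 6 each, a description). Among the same pseudopregnant libraries the lowest r of the other 21 pairs was 0.97. In those 7 genes pseudopregnant 5 lay far below the rest of its group (Cd74 82.8 CPM, next lowest 659), so these r lean on that 1 library. The ratio of Cd74 to Ciita CPM spanned 64.0 to 161 in the virgin, 42.4 to 132 in the pregnant and 19.8 to 242 in the pseudopregnant group. Pseudopregnant 1 held the top of that range, with 5.12 CPM of Ciita beside 1238 of Cd74. Pseudopregnant 5 held the bottom, with 4.18 beside 82.8. The difference between groups in this relation was not tested.

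**Figure D3:**
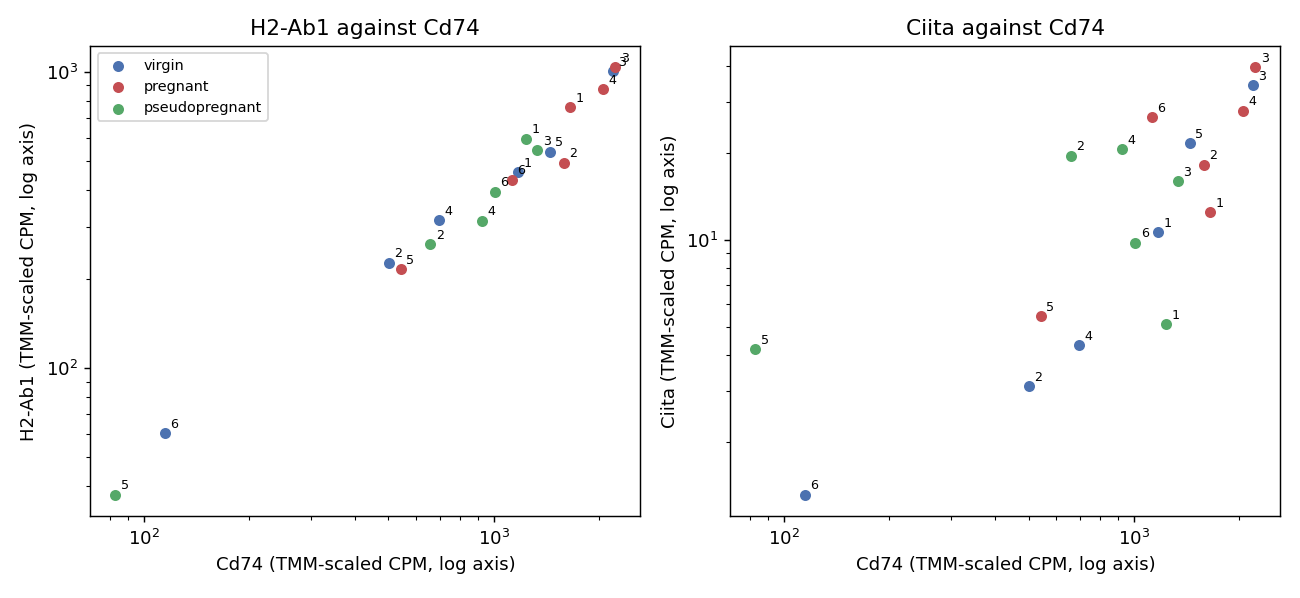
H2-Ab1 (left) and Ciita (right) against Cd74 in TMM-scaled CPM on log axes, 1 point per library, coloured by group and numbered by replicate. H2-Ab1 follows Cd74 along a line through all 18 libraries. Ciita scatters more, with a ratio of Cd74 to Ciita CPM from 19.8 in pseudopregnant 5 to 242 in pseudopregnant 1.

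The genes did not keep fixed proportions as the set went from low to high. The least-squares slope on Cd74 (log2 CPM, group means subtracted) was 1.2 in H2-Aa, 0.99 in H2-Eb1 and 0.97 in H2-DMb1. It was 0.96 in H2-Ab1, 0.83 in H2-DMb2, 0.77 in Ciita and 0.64 in H2-DMa. Scatter alone lowers such a slope. Ciita had the same within-group SD as Cd74 (1.31 each), so its slope of 0.77 equals its r with Cd74. H2-Aa CPM was 14.3% of Cd74 CPM in virgin 6 and 16.1% in pseudopregnant 5, the lowest libraries, but 32.3% in virgin 3 and 36.1% in pregnant 3, the highest. H2-DMa went the other way, at 12.7% and 10.6% in the low libraries and 3.44% and 4.24% in the high ones. H2-Ab1 stayed between 31.2% and 52.6% in all 18. Whether reads of the overlapping Brd2 contribute to the H2-DMa counts was not tested.

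The other genes of the class II region were almost silent. H2-Oa and H2-Ob, which form the inhibitor of H2-DM found in B cells, had 6 and 1 reads over 559.1 M counts. H2-Eb2, a second beta chain of H2-E, had 11 reads, and H2-Ea-ps, the alpha chain of H2-E that the annotation lists as a pseudogene, had 3. No library held more than 2 reads of any of them, and 3 counts in the smallest library are worth 0.12 CPM. All 4 failed the filter on low counts, so no difference between groups was detectable at this depth. The alpha chain listed for H2-E thus had 3 reads where its beta chain H2-Eb1 had 144262. Whether an H2-E molecule forms was not tested.

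Among 15 genes of class II transcription and interferon gamma signalling, Irf1 followed the class II genes closely, while the DNA-binding partners of Ciita spread over both signs. The measure is the mean r with the 8 class II genes over the 18 libraries, a description with no test. Irf1, an interferon-induced transcription factor that drives Ciita, had 0.78. The receptor chains Ifngr1 and Ifngr2 had 0.06 and 0.23. Among the RFX subunits, Rfx5 had -0.02, Rfxap -0.45 and Rfxank 0.48. Creb1, the X2-box factor, had -0.62, and the NF-Y subunit Nfya -0.48. The median over the 15 was 0.06, with 2 of 15 over 0.7.

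Irf1 spanned 132 to 298 CPM in the virgin (median 164), 162 to 371 in the pregnant (236) and 125 to 239 in the pseudopregnant group (180), and the groups overlapped. Its range over libraries was 2.97-fold, where that of Cd74 was 26.9-fold. Ifngr1 stayed between 118 and 183 CPM and Rfx5 between 2.61 and 7.54. None of the 15 genes passed edgeR's test in any comparison (0% of all genes in each). At an unadjusted p under 0.05 there was 1 gene between pregnant and virgin libraries (Rfxap, -0.24, SE 0.11), 3 between pseudopregnant and virgin ones and 0 between pregnant and pseudopregnant ones, beside 3.68%, 9.37% and 2.35% of all genes.

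Class I presentation moved with class II across libraries. Of 13 genes, 7 had a mean r over 0.7, with a median of 0.75. Psmb8, a catalytic subunit of the immunoproteasome, had 0.87, and Tap1, which carries peptides into the endoplasmic reticulum, had 0.83. Nlrc5, the relative of Ciita that activates class I genes, also had 0.83, and B2m, the light chain of class I, had 0.63. Nlrc5 ran from 0.350 to 7.30 CPM over the 18 libraries, B2m from 704 to 2230. The trimming peptidase Erap1, at -0.05, was the only member below 0. None of the 13 passed edgeR's test in any comparison (0% of all genes in each). Likewise 0 of 13 had an unadjusted p under 0.05 in any comparison. Over all genes that share was 3.68% for pregnant against virgin, 9.37% for pseudopregnant against virgin and 2.35% for pregnant against pseudopregnant. Positive differences were 13 of 13 for pregnant against virgin (median 0.22), 2 of 13 for pseudopregnant against virgin (-0.21) and 12 of 13 for pregnant against pseudopregnant libraries (0.36), beside 48.5%, 50.6% and 48.4% of all genes. These genes vary together too, so their signs are in large part 1 observation.

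Known targets of interferon gamma also moved with the class II genes across libraries. Of 14 tested genes, 7 had a mean r over 0.7 and the median was 0.69. Igtp, an interferon-induced GTPase, stood highest at 0.89. It had 4.2 CPM in virgin 6 and 6.01 in pseudopregnant 5, against 72.5 in virgin 3 and 84.6 in pregnant 3. Wars, a tRNA synthetase, stood lowest at -0.43. None of the 14 passed in any comparison (0% of all genes in each). The list's medians were 0.66, -0.05 and 0.68 for pregnant against virgin, pseudopregnant against virgin and pregnant against pseudopregnant. At an unadjusted p under 0.05 there were 2, 0 and 3 genes of the 14, beside 3.68%, 9.37% and 2.35% of all genes. Cxcl10, a chemokine for T cells, had the smallest of these p-values, between pregnant and pseudopregnant libraries (log2 difference 2.23, SE 0.71, adjusted p = 0.920). Its pregnant libraries ran from 1.52 to 29.8 CPM (median 2.54) and its pseudopregnant ones from 0.637 to 2.98 (median 1.2), and without pregnant replicate 3 the difference was 0.68 (SE 0.45). Gbp6, a guanylate-binding protein, differed by 1.35 there (SE 0.51), or by 0.90 (SE 0.48) without pregnant replicate 3. Interferon gamma itself (Ifng) had 0 reads in all 18 libraries, which allows up to 0.0054 CPM over their summed counts.

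For the endosomal proteases and reductase that prepare peptides the values were lower. The 7 genes had a median mean r of 0.32, none over 0.7. Ctss, the cathepsin that cuts Cd74, had 0.46, the legumain gene Lgmn 0.19 and the thiol reductase Ifi30 0.32, while cathepsin B (Ctsb) reached 0.70. Ctss ran from 101 to 285 CPM, Ifi30 from 98.7 to 176 and Lgmn from 16.5 to 55. None passed edgeR's test in any comparison (0% of all genes in each), and 0 of 7 had an unadjusted p under 0.05. Over all genes that share was 3.68% for pregnant against virgin, 9.37% for pseudopregnant against virgin and 2.35% for pregnant against pseudopregnant.

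Transcripts of classical costimulation were close to absent. Cd80 had 10 reads, Cd86 17 and Cd40 35 over the 18 libraries, and Pdcd1lg2 had 0. March1, a ubiquitin ligase that removes class II from the surface of dendritic and B cells, had 22, whereas its relative March8 stood at 48.9 to 125 CPM. The inhibitory ligand Cd274 had a mean r of 0.75 with the class II genes and spanned 0.555 to 9.05 CPM. Icosl, a costimulatory ligand, had 0.17. Of 9 genes in this list 4 were tested and 0 passed (0% of all genes in each comparison). At an unadjusted p under 0.05 there was 1, Icosl between pregnant and virgin libraries (0.47, SE 0.20, adjusted p = 0.891), beside 3.68% of all genes. Without pregnant replicate 3 its difference was 0.30 (SE 0.19).

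Markers that define dendritic cells were near 0, and those of macrophages were low. Of 19 genes of dendritic cells and macrophages, 10 stayed under 1 CPM in all 18 libraries. The highest of the others were Cd14 (up to 9.84 CPM), Itgam (7.11), Sirpa (3.35) and Cd68 (2.43). Itgax had 39 reads in all, Xcr1 4, Flt3 3, and Clec9a, Cd209a and Cx3cr1 1 each. The list's summed level was 14.7 to 23.0 CPM in the virgin, 14.5 to 27.3 in the pregnant and 15.4 to 22.9 in the pseudopregnant group, most of it from Cd14 and Itgam. That sum had r = 0.21 with Cd74 (permutation p = 0.396, adjusted p = 0.396; rho 0.22, permutation p = 0.396, adjusted p = 0.396), and -0.12 without the 2 libraries farthest from the median of Cd74. The mean r with the class II genes ran from -0.32 to 0.39 over the 11 tested genes (median 0.19), with 2 below 0. It was 0.39 for Fcgr1 and 0.38 for C1qb, both of macrophages, and 0.02 for Ptprc.

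B cell genes were as sparse. Cd79a had 9 reads in all and Pax5 1, and 8 of 9 genes of B cells and plasma cells stayed under 1 CPM in every library, the exception being Igha (0.232 to 2.29 CPM). Jchain, the joining chain of secreted IgA, spanned 0.111 to 0.693 CPM. Summed levels were 0.759 to 3.19 CPM in the virgin, 0.790 to 2.38 in the pregnant and 0.910 to 2.25 in the pseudopregnant group. The sum had r = 0.49 with Cd74 (permutation p = 0.0511, adjusted p = 0.0651; rho 0.32, permutation p = 0.243, adjusted p = 0.262). Without virgin replicate 1, 2 or 5 the adjusted p was 0.0485, 0.0419 or 0.0243. Without the 2 farthest libraries r was 0.38. The part of these cells in the class II levels was not tested.

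Transcripts of T cells and innate lymphocytes were mostly at trace level. Of 12 genes, 10 stayed under 1 CPM in all libraries, and Ifng and Il22 had 0 reads. Gzma, a granule protease of cytotoxic lymphocytes, stood at 0.0562 to 1.66 CPM and had a mean r of 0.70 with the class II genes. It was lowest in pseudopregnant 5 (0.0562) and virgin 6 (0.0584), the libraries lowest in class II, and highest in virgin 3 (1.66), but pregnant 4 had 0.112 beside 2049 CPM of Cd74 and virgin 4 had 1.58 beside 696. The list's summed level spanned 33.3 to 56.3 CPM in the virgin, 35.0 to 55.6 in the pregnant and 40.3 to 60.7 in the pseudopregnant group. It had r = 0.58 with Cd74 (permutation p = 0.0231, adjusted p = 0.0324; rho 0.68, permutation p = 0.00333, adjusted p = 0.00583), and 0.75 without pseudopregnant 5 and virgin 6 (permutation, adjusted p = 0.00383). The adjusted p was 0.0542 without virgin replicate 3 and 0.0623 without pregnant replicate 5. With 1 gene left out of the sum, a choice made after its level was seen, 0.365 to 3.53 CPM remained. That smaller sum had r = 0.70 (permutation p = 0.00713, adjusted p = 0.0111; rho 0.47, permutation p = 0.0787, adjusted p = 0.1), and 0.30 without pseudopregnant 5 and virgin 6 (permutation, adjusted p = 0.355). The correlations of both sums thus moved opposite ways when those libraries were left out. The part of these transcripts in the class II levels was not tested.

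Markers of absorptive cells of the villus also moved with class II. The score of 12 absorptive enterocyte genes had r = 0.58 with Cd74 (permutation p = 0.0188, adjusted p = 0.0292; rho 0.63, permutation p = 0.00614, adjusted p = 0.0086), and 0.67 without the 2 farthest libraries. Without pregnant replicate 5 its adjusted p was 0.0623. The score of 12 genes of dividing crypt cells had r = -0.40 (permutation p = 0.124, adjusted p = 0.134; rho -0.32, permutation p = 0.208, adjusted p = 0.243), and -0.54 without those libraries (adjusted p = 0.0474). All 12 crypt genes and all 4 stem cell genes had a negative mean r with the class II genes, with Lgr5, the stem cell receptor, at -0.72. Epcam had r = 0.43 with Cd74 (permutation p = 0.107, adjusted p = 0.124; rho 0.48, permutation p = 0.0497, adjusted p = 0.0632), or 0.32 without the 2 farthest libraries. Its adjusted p was 0.0473 without virgin replicate 5. Over 6 epithelial genes, Epcam among them, the mean r with the class II genes ran from -0.21 to 0.44. Their median was 0.11, and 3 were below 0. The part of cell make-up in the class II levels was not tested.

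Inducible defence genes of the epithelium had mean r values near 0 with class II. Reg3g, an antibacterial lectin, had a mean r of 0.16 and Saa1, a serum amyloid protein made by epithelium in contact with certain bacteria, 0.02. The 7 tested genes of that list ran from -0.28 to 0.16. Saa1 reached 243 CPM in pseudopregnant 4, where Cd74 stood at 924 CPM, and 10.3 CPM in virgin 6, where Cd74 stood at 115.

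**Figure D4:**
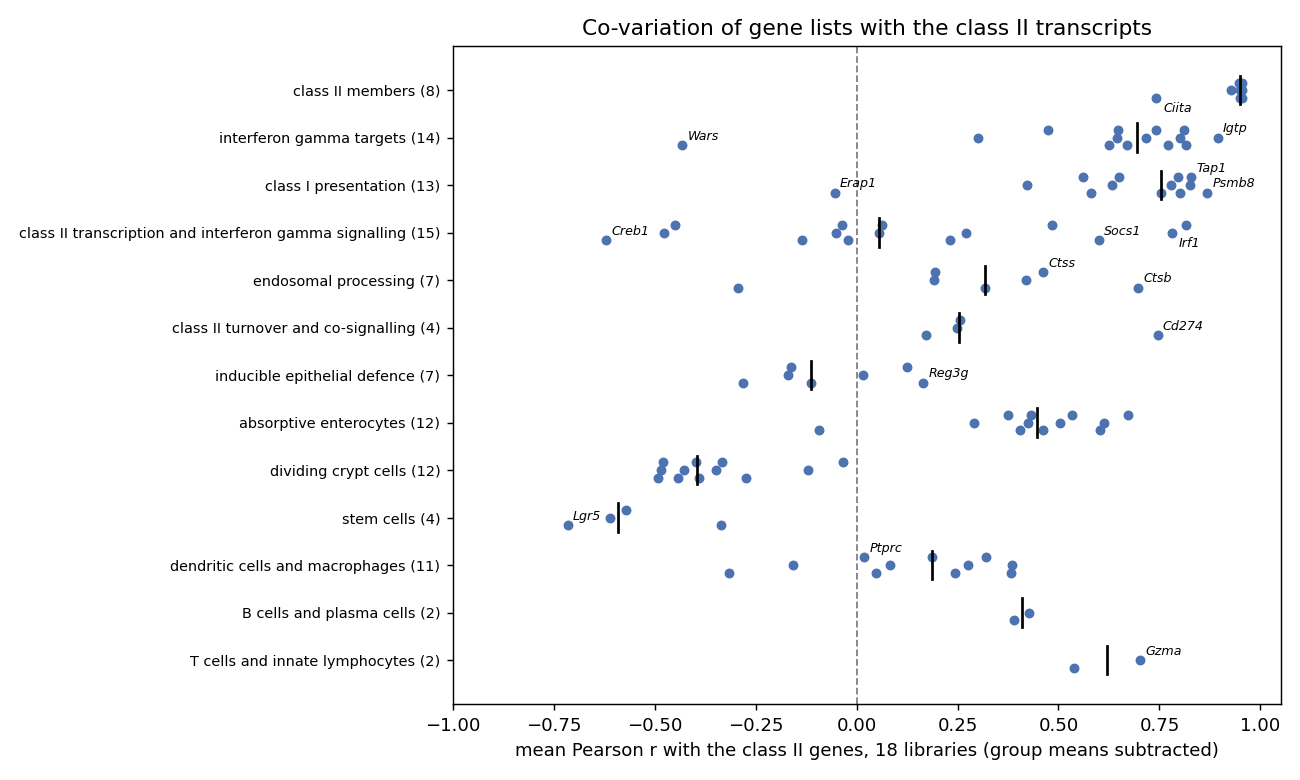
Mean Pearson r of each tested gene with the class II genes over 18 libraries, by gene list (number of tested genes in brackets); each point is 1 gene (a class II gene is set against the other 7) and black lines are list medians. The lists of interferon gamma targets (0.69) and class I presentation (0.75) sit to the right, the lists of stem cells (-0.59) and dividing crypt cells (-0.39) to the left, and dendritic cells and macrophages near the middle (0.19). The median is 0.62 for T cells and innate lymphocytes (2 tested genes) and 0.41 for B cells and plasma cells (2 tested genes).

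The 9254 other genes with a mean of at least 5 CPM, predicted and clone-named genes left out, were ordered by their mean r with the class II set. Among the 10 highest by mean r were Igtp (0.89), Psmb8 (0.87), H2-Q7 (0.87), Nudt5 (0.86), H2-Q6 (0.84), Ifi47 (0.83), Tap1 (0.83), H2-Q4 (0.83) and Pla2g16 (0.81). The H2-Q genes encode class I-like molecules and are close copies of each other, so their reads may be split between them. Nudt5 encodes a hydrolase of ADP-ribose, and Ifi47 an interferon-induced GTPase like Igtp. The 5 lowest were Ercc2 (-0.80), a DNA helicase of transcription and repair, the chloride channel Cftr (-0.80), Bmp3 (-0.79), the cell cycle kinase Cdk6 (-0.77) and the repressor Tgif1 (-0.77). A mean r over 0.7 was reached by 100 of the 9254 genes and one over 0.8 by 12, and the median was -0.004. None of these 15 genes passed edgeR's test in any comparison (0% of all genes in each).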

How the data were processed

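Each library has 1 deposited table of whole-number counts by Ensembl gene ID, which the authors did not normalize. The tools listed in the submitters' processing notes, without their roles or settings, include HISAT2 2.0.4, featureCounts from Subread 2.0.0, FastQC 0.11.5 and the authors' own DESeq2 1.24.0, with build GRCm38. The annotation release is not given in the sources used here. GENCODE M21 named 47310 of 47729 genes, and at most 0.029% of counts fell on the 419 without a name. No replicate pair looked like 1 library deposited more than once (chi-square / df of their counts from 36.2 to 458).

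After filterByExpr and TMM scaling, 1 quasi-likelihood model of edgeR 4.0.16 (under R 4.3.3) with a mean per group was fitted to all 18 libraries. Two-sided p-values of the 3 contrasts were adjusted by Benjamini-Hochberg over 14675 genes (threshold 0.05). The code was tested on simulated data. Correlations used log2 CPM (prior count 2) minus group means, with 100000 permutations within groups, two-sided. DESeq2 1.42.0, limma-voom 3.58.1, other scalings and filters, a robust fit, a replicate block and leaving out each library were the alternatives.

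The class II genes and the gene lists were chosen with earlier results of these data known. Named are these 8 genes, 23 others fixed by name, the 3 members of each list with the smallest p, and the 10 most and 5 least similar genes. Other genes, such as Ctsb, Cd274, Rfxank, Nfya, Wars, Cd14, Itgam and the genes given only by read totals, were named after their values were seen. Results that need certain genes are not reported here.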

Additional observations from a re-analysis of the deposited data

Results flagged for a closer look

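Within each group of 6 libraries, the gap of the highest and of the lowest library to its neighbour, as a share of the group's range in log2 CPM, was set against Dixon's 95% critical value for 6 samples. Of 72 sets tested (24 genes in 3 groups), 9 exceeded it, where chance gives about 1 in 20. Pseudopregnant replicate 5 was the low library in 8 of these 9. Its gap was 0.746 of the range in Cd74 (82.8 CPM, next lowest 659), 0.722 in H2-Aa (13.4, next 150), 0.704 in H2-Ab1 (37.3, next 262) and 0.689 in H2-Eb1 (17.7, next 140). For the peptide-exchange chaperone, the gap was 0.635 in H2-DMa (8.82, next 33.1), 0.766 in H2-DMb1 (3.71, next 34.1) and 0.697 in H2-DMb2 (0.393, next 2.59). Tap1, the peptide transporter of class I presentation, had a gap of 0.649 (38.3, next 64.9). These genes vary together, so the 8 sets are in large part 1 observation. In the pregnant group, replicate 5 was the low library of H2-DMb2 with a gap of 0.681 (1.75, next 4.72 CPM).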

How the results depend on the processing

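None of the 8 genes passed the threshold in any comparison under any alternative run (0 of 8 each time, also with each library left out), and smallest adjusted p-values over all of them were 0.349 for pregnant against virgin, 0.482 for pseudopregnant against virgin and 0.448 for pregnant against pseudopregnant. Differences stayed positive for 8 of 8 genes in the comparisons of the pregnant group under every alternative. The count over all genes between pregnant and virgin libraries went from 0 to 5 with DESeq2 and was 0 in each run without 1 library. Ciita between pseudopregnant and virgin libraries turned to -0.0038 with DESeq2 size factors, -0.0048 with upper-quartile scaling, -0.012 with no filter and -0.0047 with DESeq2, and was 0.55 with limma-voom, against 0.0011 in edgeR's fit. With each library left out in turn, that comparison ran from -0.46 to 0.15 in Cd74, -0.57 to 0.19 in H2-Aa, -0.51 to 0.16 in H2-Ab1, -0.47 to 0.11 in H2-Eb1, -0.41 to 0.12 in H2-DMb1, -0.27 to 0.23 in H2-DMb2 and -0.24 to 0.61 in Ciita. The upper ends of these 7 came without virgin replicate 3. H2-DMa ran from -0.46 to -0.03, its upper end without pseudopregnant replicate 5. With limma-voom the medians over the 8 genes were 0.84, -0.16 and 1.03. The relation of Cd74 to the summed dendritic cell and macrophage markers was -0.12 without the 2 libraries farthest from the median of Cd74, and ran from -0.0012 to 0.28 with 1 library left out. Without subtraction of group means, the relation to the summed B cell and plasma cell markers was 0.50 (permutation, adjusted p = 0.0415). Of single-gene differences, 212 kept their sign under settings other than leaving out a library and 4 did not, all of Ciita; with a library left out 268 kept it and 20 did not. The cause of these shifts was not tested.

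Whether replicate numbers mark pairs or a shared batch was not tested. Of correlations between same-numbered libraries, 10 of 18 exceeded 0.1 (range -0.48 to 0.66), and 5 of 18 libraries correlated best with their own number. These correlations ran from 0.12 to 0.66 in replicate 1, 0.38 to 0.66 in 3 and 0.28 to 0.42 in 5. They ran from -0.48 to 0.08 in replicate 2, 0.01 to 0.15 in 4 and -0.46 to 0.06 in 6. With the replicate number as a block, the count over all genes between pregnant and virgin libraries was 1. Ciita between pseudopregnant and virgin libraries was 0.11 with the block, and the medians over the 8 genes were 0.55, -0.24 and 0.80. In each comparison 0 of 8 passed the threshold. Genes at an unadjusted p under 0.05 in edgeR's fit numbered 979, 1988 and 618 with the block, against 540, 1375 and 345 without it.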
